A study of Mus musculus with 6 samples.

Results

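VEGF and angiopoietin signalling is the main route by which other lung cells instruct blood vessels, and it was examined here in fetal mouse lungs that lacked Smad1 in their epithelium. The 10 genes were chosen by name: the ligands Vegfa, Vegfc, Angpt1 and Angpt2, the receptors Kdr, Flt1, Flt4, Tek and Tie1, and the co-receptor Nrp1. All probe sets that the platform annotation gives to these symbols were used, 22 of the 45037 on the array, and each of the 10 genes had at least 1. The study compared the left lung lobe of 3 wild type mice with that of 3 Smad1 CKO mice (conditional knockout of Smad1, which carries signals of bone morphogenetic proteins, in the lung epithelium). All 6 animals were of strain C57/BL6 and at E18.5, shortly before birth, and the RNA of every lobe was hybridised to its own Affymetrix Mouse430_2 array. The mice form 3 pairs of 1 wild type and 1 CKO animal. The sources used here do not give the Cre driver or the deleted part of Smad1. A knockout confined to the epithelium leaves the gene in other cells of the lobe, which was not checked here.

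In the developing lung, VEGF-A is made largely by the epithelium, and by alveolar type 1 cells in particular late in gestation. It acts on capillary endothelium through Kdr (VEGF receptor 2, the main signalling receptor), while Flt1 (VEGF receptor 1) binds it tightly and limits its supply and Nrp1 presents it to Kdr. VEGF-C acts mainly on Flt4 (VEGF receptor 3), which is best known in lymphatic vessels. Angiopoietin 1, from cells around the vessel, activates the endothelial receptor Tie2, encoded by Tek, angiopoietin 2 from the endothelium itself modulates that signal, and Tie1 is a partner of Tie2 with no ligand of its own in this family.

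Values are deposited intensities as log2(intensity + 1), called levels, and a difference is the CKO level minus the wild type level of the same pair. The number of arrays limits the precision, and p-values measure only the spread between these animals. Smad1 CKO 3 stood apart: a control probe set for 18S ribosomal RNA read 2048 there and 117.4 to 180.4 on the other arrays, and its beta-actin control read 5820 against 18450 to 20900. Smad1 CKO 1 differed in sex-linked genes, with an Xist level of 10.9 against 6.07 to 7.70 elsewhere, and Eif2s3y, on the Y chromosome, at 3.78 against 7.06 to 9.04, so genotype and sex-linked expression cannot be told apart in pair 1. The lung markers Sftpc and Ager were among the bright genes in both groups, as given below with their lists. Bright genes as a whole lay lower in pair 3. Among the 9838 genes within the range of mean levels of the 10, pairs 1, 2 and 3 had median differences of -0.29, -0.03 and -0.81. Over all 18193 genes the median was -0.09, and 0.05 after cyclic loess normalization, which evens out such brightness-dependent shifts between arrays. Each gene is therefore given array by array or pair by pair, and without pair 3 or after cyclic loess. Most are also set beside genes of like brightness.

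Of the 10 genes, Vegfc, Tek, Tie1, Kdr, Nrp1 and Flt1 showed the lowest values in CKO lungs, between -1.38 and -0.86, and Vegfa lay between these and Flt4, Angpt1 and Angpt2. None of the 22 probe sets passed Benjamini-Hochberg adjustment over all probe sets at 0.05 (limma with the pair as a block, adjusted p from 0.367 to 0.964), where 0.00222% of all probe sets were called. At an unadjusted p under 0.05, 12 of the 22 probe sets and 6 of the 10 genes by their brightest probe set were lower and none was higher. Across the array 8.4% of probe sets and 9.96% of genes were lower at that limit, and 4.29% and 4.96% were higher. The 22 probe sets included 15 lower in all 3 pairs, against 24.1% of the array, and 7 with every CKO lung below every wild type lung, against 5.36%. Without pair 3 the genes under that limit, again by their brightest probe set, were 6 of 10 (6.19% of all genes were), with Angpt1 in place of Nrp1. After cyclic loess they were Vegfc, Flt1 and Tek, 3 of 10 (6.25%). The dimmer Nrp1 probe sets were under the limit in both of these settings, and the dimmer Flt1 and Angpt1 probe sets in neither. The arrays showed 8 of the 10 genes lower in all 3 pairs, against 29.3% of all genes, and 4 with no overlap, against 6.05%. Bright genes had larger shares: of genes within the members' range of levels, 45.62% were lower in all 3 pairs and 15.67% were lower at an unadjusted p under 0.05.

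**Figure D1:**
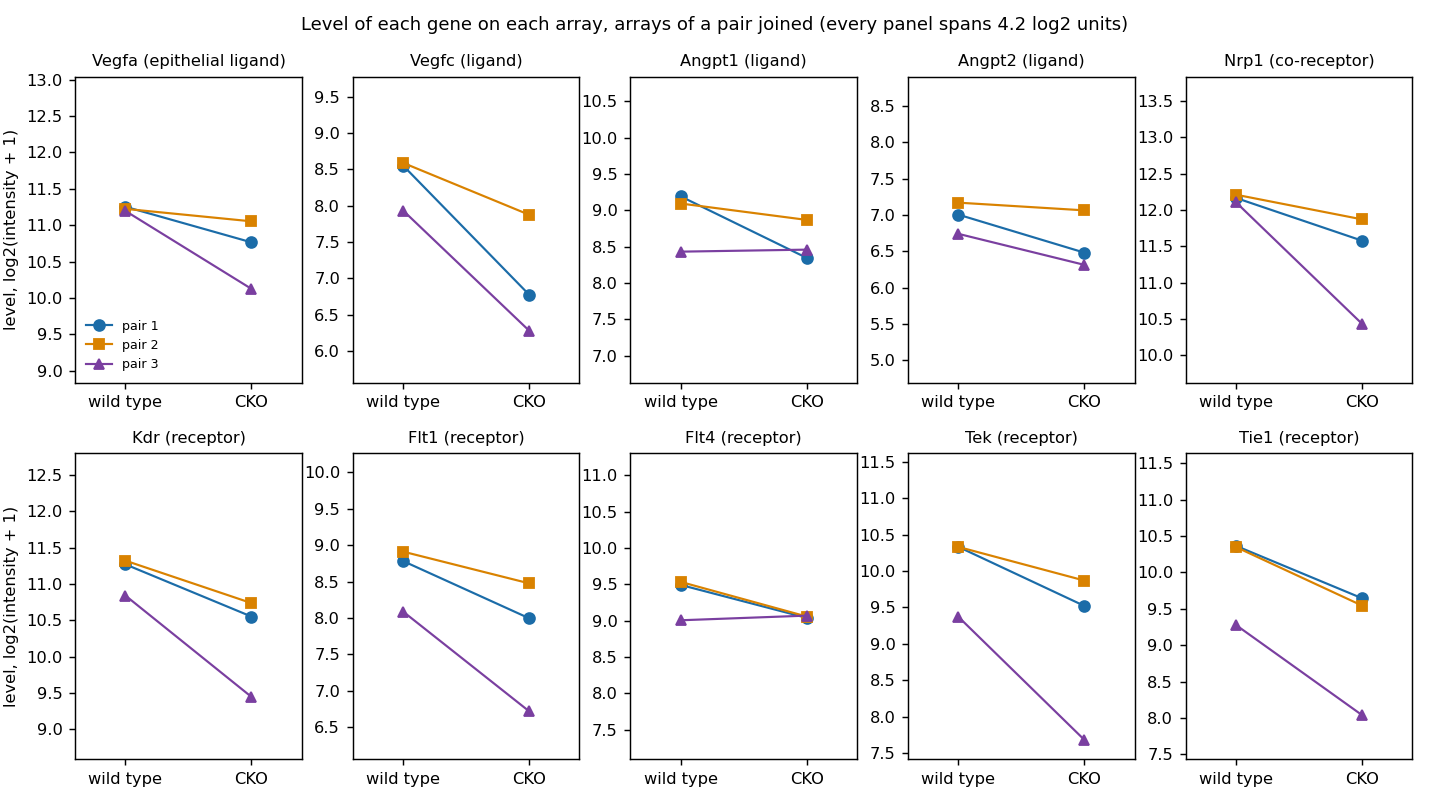
Level of each of the 10 genes, as log2(intensity + 1) of its brightest probe set, in the 3 wild type and 3 Smad1 CKO lungs, with a line joining the animals of a pair. Lines slope down in every pair for 8 genes, while those of Angpt1 and Flt4 are nearly flat in pair 3.

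Vegfa, the epithelial ligand, lay slightly lower in CKO lungs. Its level was 11.25, 11.22 and 11.20 in wild type lungs 1 to 3 and 10.76, 11.05 and 10.12 in CKO lungs 1 to 3. The wild type lungs lay close together and above every CKO lung, while the CKO lungs were spread out and CKO 3 was the lowest. CKO minus wild type came to -0.58 ± 0.46 (SD over 3 pairs), or 1.49-fold lower, with a 95% interval of -1.16 to 0.0077 (limma, unadjusted p = 0.0522, adjusted p = 0.367). Pair differences were -0.49, -0.17 and -1.07, whereas the median of the 331 genes of like brightness (mean level within 0.25) was -0.27, 0.01 and -1.45. In pair 3, then, 78.55% of genes of its brightness lay below Vegfa. Without pair 3 its difference was -0.33, and after cyclic loess the direction was lost (0.0089). The dimmer Vegfa probe set gave -0.56 ± 0.38, with -0.43, -0.27 and -0.98 in the pairs and -0.08 after cyclic loess.

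Vegfc, the ligand of Flt4, had the lowest value of the 10 genes, and all 3 of its probe sets lay low. The brightest, whose name marks probes that can bind other transcripts, was at 8.55, 8.59 and 7.93 in wild type lungs and at 6.78, 7.87 and 6.28 in CKO lungs, with no overlap. The mean over pairs was -1.38 ± 0.58 (SD), or 2.60-fold lower, with a 95% interval of -2.04 to -0.72 (unadjusted p = 0.00228, adjusted p = 0.367). Only 0.39% of the 18193 genes had a lower difference. The second probe set was at 8.35, 8.37 and 7.57 in wild type and 7.45, 7.65 and 5.72 in CKO lungs. These groups overlapped, since wild type 3 lay below CKO 2, although each CKO lung lay below its own partner. The third, at -1.68 ± 0.76, gave -1.69, -0.91 and -2.44 in the pairs. Its CKO 3 level of 4.53 lay below that array's lower quartile of 5.27 (log2). Genes as bright as the first probe set had medians of -0.28, -0.03 and -0.51, and 0.4%, 1.32% and 5.54% of them lay below Vegfc in the 3 pairs. The low values of Vegfc did not rest on pair 3: its probe sets gave -1.24, -0.81 and -1.30 without that pair, with adjusted p from 0.256 to 0.463. After cyclic loess they gave -1.09, -0.89 and -1.61.

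The angiopoietins had smaller differences, with intervals over all 3 pairs that included 0. Angpt1, the Tie2 agonist, was at 9.19, 9.09 and 8.43 in wild type and 8.35, 8.87 and 8.46 in CKO lungs. The groups overlapped, and pair 3 showed almost no difference (0.03), although 91.05% of genes of its brightness lay lower there. Its mean difference was -0.35 ± 0.45 (95% interval -0.93 to 0.23, adjusted p = 0.416), and 0.08 after cyclic loess. It was -0.54 without pair 3 (95% interval -1.07 to -0.0029, adjusted p = 0.566) and -0.10 without pair 1. The other Angpt1 probe set gave -0.22 ± 0.29, with -0.16, 0.03 and -0.54 in the pairs, so it was lowest in pair 3. It was at -0.06 without pair 3 and at 0.10 after cyclic loess. Angpt2, the endothelial modulator of Tie2, was at 7.004, 7.17 and 6.74 in wild type and 6.48, 7.06 and 6.31 in CKO lungs, which overlap. Its difference was -0.35 ± 0.22 (95% interval -0.83 to 0.13, adjusted p = 0.375), and -0.26 after cyclic loess. Its second probe set was dim, at 4.69 to 5.30 on all arrays, and gave 0.25 ± 0.38.

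Kdr, the main VEGF-A receptor, was lower in every pair. Its level was 11.27, 11.32 and 10.84 in wild type lungs and 10.55, 10.74 and 9.45 in CKO lungs, so every CKO lung lay below every wild type lung. On average it was -0.90 ± 0.43 (SD over 3 pairs), or 1.86-fold lower (95% interval -1.47 to -0.32, unadjusted p = 0.00885, adjusted p = 0.367). Pair differences were -0.72, -0.58 and -1.39, beside medians of -0.25, 0.0081 and -1.35 for the 385 genes of like brightness. Kdr was thus low for its brightness in pairs 1 and 2, where 2.86% and 1.82% of those genes lay below it, and in the middle of them in pair 3, where 45.71% did. Without pair 3 the difference was -0.65, and after cyclic loess it was -0.33 (95% interval -0.76 to 0.11).

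Flt1, the VEGF-A receptor that limits its supply, gave unequal values in its 4 probe sets. The brightest was at 8.78, 8.91 and 8.09 in wild type and 7.995, 8.48 and 6.72 in CKO lungs, which overlap through wild type 3 and CKO 2. Its difference was -0.86 ± 0.47 (1.82-fold, unadjusted p = 0.0122, adjusted p = 0.367), and -0.50 after cyclic loess. The other 3 gave -0.36, -0.35 and -0.28, with intervals that reached above 0, and after cyclic loess -0.0006, -0.10 and -0.23. The first of these was lower in all 3 pairs as deposited. Which Flt1 transcripts (membrane-bound or soluble) each probe set reads, the sources used here do not say.

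Flt4, the VEGF-C receptor, showed no difference larger than the spread between pairs. It was at 9.49, 9.53 and 9.01 in wild type and 9.04, 9.06 and 9.07 in CKO lungs. The CKO lungs were nearly alike and lay below wild type lungs 1 and 2 but not below wild type 3. The difference was -0.29 ± 0.31 (95% interval -0.80 to 0.22, adjusted p = 0.435), with -0.45, -0.48 and 0.06 in the pairs. Without pair 3 it was -0.46, and after cyclic loess it was 0.19, the opposite direction. Its second probe set gave -0.02 ± 0.63. In pair 3, 94.51% of genes as bright as the first lay below Flt4.

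The angiopoietin receptors were both lower in every pair. Tek (Tie2) was at 10.33, 10.33 and 9.37 in wild type and 9.52, 9.87 and 7.68 in CKO lungs. Wild type 3 lay below the first 2 CKO lungs, so the groups overlapped while each pair kept its direction. The difference was -0.99 ± 0.63 (1.98-fold, unadjusted p = 0.0130, adjusted p = 0.367), -0.64 without pair 3 and -0.49 after cyclic loess. Tie1 was at 10.36, 10.35 and 9.28 in wild type and 9.64, 9.54 and 8.04 in CKO lungs, again with wild type 3 below CKO 1 and 2. Its difference was -0.92 ± 0.28 (1.89-fold, 95% interval -1.42 to -0.42, unadjusted p = 0.00429), with -0.72, -0.80 and -1.24 in the pairs. In pair 2, where genes of like brightness had a median of -0.03, 1.25% of them lay below Tie1. After cyclic loess Tie1 was at -0.42.

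Nrp1, the co-receptor that presents VEGF-A to Kdr and also binds semaphorins, lay lower in all 3 pairs in each of its 4 probe sets. The brightest was at 12.16, 12.21 and 12.10 in wild type and 11.58, 11.87 and 10.43 in CKO lungs, with no overlap. Its difference was -0.87 ± 0.71 (1.82-fold, unadjusted p = 0.0289, adjusted p = 0.367). The value of pair 3, -1.67, equalled the median of genes of its brightness there (-1.67), while those of pairs 1 and 2, -0.59 and -0.34, lay below medians of -0.25 and -0.01. Without pair 3 this probe set was at -0.46 (limma, 95% interval -0.95 to 0.02) and after cyclic loess at -0.24 (95% interval -0.63 to 0.15), both no longer under the unadjusted limit. The other 3 gave -1.13, -1.05 and -1.12, and -0.56, -0.55 and -0.69 after cyclic loess. Unlike the brightest, they stayed under the unadjusted limit in both settings. Their unadjusted p in limma was 0.0060, 0.0061 and 0.021 without pair 3 (adjusted p 0.498 to 0.547). After cyclic loess it was 0.0090, 0.0090 and 0.012 (adjusted p 0.336 for each).

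**Figure D2:**
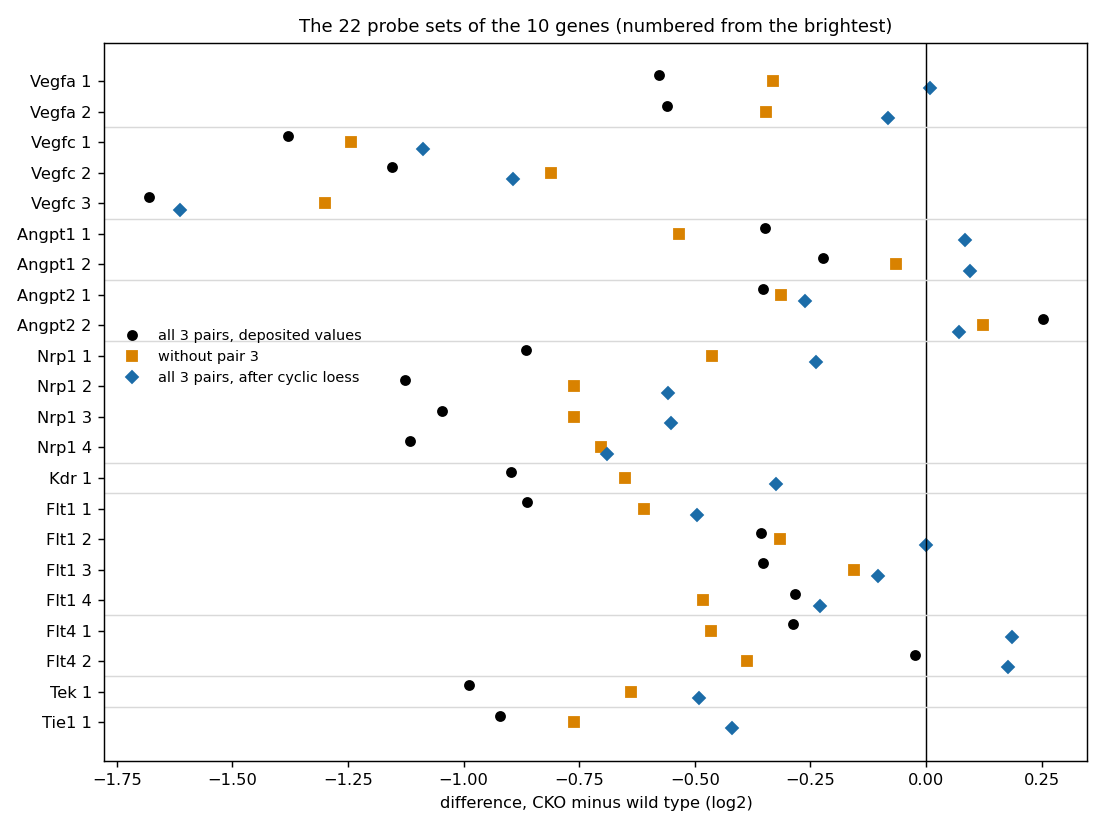
Mean difference (CKO minus wild type, log2) of each of the 22 probe sets, over all 3 pairs, without pair 3 and after cyclic loess. All 3 Vegfc probe sets stay at -0.81 or lower throughout, while those of Vegfa, Angpt1 and Flt4 lie between -0.08 and 0.19 after cyclic loess.

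The receptors were set against the epithelial ligand within each pair. The median difference of the 5 receptors was -0.72, -0.48 and -1.37 in the 3 pairs, and that of Vegfa was -0.49, -0.17 and -1.07. Over all pairs the receptor median was -0.90, against -0.99 without pair 1, -0.64 without pair 3 and -0.42 after cyclic loess, while the 3 other ligands had a median of -0.35. The receptor median was therefore below Vegfa in 3 of 3 pairs, and the gap averaged -0.28 ± 0.04 (SD). The receptor at the median was Tie1, Flt4 and Flt1 in pairs 1, 2 and 3, so this SD is not the spread of any 1 receptor. By brightest probe sets, Flt4 itself lay above Vegfa in pairs 1 and 3, at -0.45 and 0.06. The other receptors lay below Vegfa in every pair. The dimmer Flt1 probe sets did not: the third, at -0.44, 0.13 and -0.74, lay above Vegfa in every pair. The second lay above Vegfa in pairs 2 and 3, and the dimmest in pair 3. An exact two-sided permutation test within pairs gave p = 0.25. It is the smallest p that 3 pairs allow, so the test could not decide whether the gap exceeds the spread. After cyclic loess the gap was -0.33 ± 0.16, again in 3 of 3 pairs, with the same p.

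**Figure D3:**
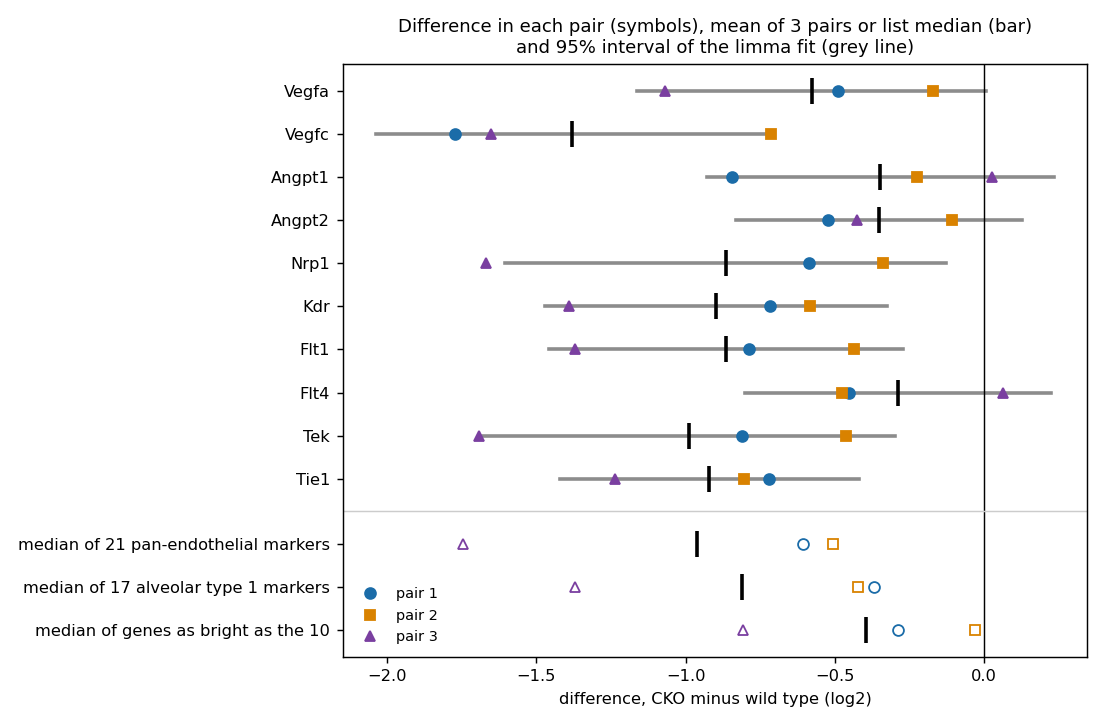
Difference (CKO minus wild type, log2) of each gene in each pair, with the mean of 3 pairs and its 95% interval, and below the line the medians of pan-endothelial and alveolar type 1 markers and of genes as bright as the 10. In pair 2, where the median of genes as bright as the 10 was -0.03, Tie1, Vegfc and Kdr lay at -0.80, -0.71 and -0.58.

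Markers of endothelial cells in general were lower along with the receptors. In a whole lobe, fewer cells of a type and less RNA per cell cannot be told apart. Of 21 pan-endothelial markers (the 10 genes left out), 20 lay lower in all 3 pairs and 16 were lower at an unadjusted p under 0.05. Among all genes 29.3% and 9.96% did so, and among genes within the range of levels of the 10, 45.62% and 15.67%. Their summed intensity was 31500 to 39490 in wild type and 9986 to 27840 in CKO lungs, and none was dimmer on average than the median probe set. Their median difference was -0.96, with -0.61, -0.50 and -1.75 in the pairs and -0.42 after cyclic loess. The smallest p belonged to Lmo2 (-1.30), Erg (-1.16), Arhgef15 (-0.88) and Ecscr (-0.93), none of which passed over all probe sets. The defining markers Pecam1 and Cldn5 were at -0.96 and -0.92. Relative to this list's median in the same pair, Kdr was at 0.05 ± 0.26, Flt1 at 0.09 ± 0.28, Nrp1 at 0.09 ± 0.07, Tek at -0.04 ± 0.15 and Tie1 at 0.03 ± 0.42 (SD, 3 pairs). By their brightest probe sets, these 5 genes thus differed from the endothelial median by less than or about the spread between pairs. Other probe sets lay elsewhere. The second of Nrp1 gave -0.85, -0.68 and -1.86 in the pairs, each below the endothelial median. The second of Flt1 gave -0.57, -0.07 and -0.44, each above it. Kdr, Tek and Tie1 had 1 probe set each. Flt4, at 0.66 ± 0.99, and Vegfc, at -0.43 ± 0.66, were farther from it, and none of the 21 markers had a lower difference than Vegfc. The part of endothelial cell number in the receptor values was not tested.

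Among 12 lung capillary markers 8 were lower in all 3 pairs (median -0.71, or -0.25 after cyclic loess), against 45.62% of genes within the range of levels of the 10. After cyclic loess Ednrb, Plvap, Gpihbp1 and Fibin lay above 0, at 0.04, 0.09, 0.26 and 0.25, and the others below. Those with the smallest p were the carbonic anhydrase gene Car4 at -1.43 ± 0.09, Tmem100 at -1.20, Thbd at -0.87 and Hpgd at -0.68. The 6 lymphatic markers, of the vessels in which Flt4 is best known, had a median of -0.28, or 0.02 after cyclic loess. Lyve1 (-0.84) and Nr2f2 (-0.50), 2 of the 6, were lower in all pairs. That share is near the 29.3% of all genes and below the 45.62% of genes within the range of levels of the 10. The lymphatic regulator Prox1 was dim, at 4.63 to 6.15 on all arrays, with a difference of 0.27. Of 13 pericyte markers 8 were lower in all 3 pairs, against 45.62% of genes within the range of levels of the 10. Their median was -0.59, or -0.04 after cyclic loess, and their summed intensity was 15900 to 19750 in wild type and 5955 to 18540 in CKO lungs. Those with the smallest p were Trpc6 at -0.75 ± 0.05, Cspg4 at -0.61, Gucy1b1 at -0.82 and Pdgfrb at -0.69. Rgs5 and Kcnj8, chosen after their values were seen, lay the other way at 0.23 and 0.09, and at 0.68 and 0.52 after cyclic loess. Fibroblast markers, of the cells that with pericytes supply Angpt1, gave -0.72 over 12 genes with -0.20, -0.0075 and -1.84 in the pairs. Those with the smallest p were Itga8 (-1.03), Gli1 (0.57), Wnt2 (-0.72) and Pdgfra (-0.92).

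Markers of the epithelium that makes Vegfa had unlike medians in the lists by cell type. The 17 alveolar type 1 markers had a median of -0.81 (-0.37, -0.42 and -1.37 in the pairs), or -0.24 after cyclic loess. Of these, 14 were lower in all pairs, against 45.62% of genes within the range of levels of the 10. Those with the smallest p were Aqp5 at -3.05 ± 0.17, Rtkn2 at -1.45, Scnn1g at -1.10 and Col4a3 at -0.81. The summed intensity of the list was 55010 to 57490 in wild type and 15530 to 45640 in CKO lungs. The bright type 1 marker Ager was at 13.7 in wild type and 12.8 in CKO lungs. Its differences were -0.27, -0.26 and -2.30 in the pairs, and -0.24 after cyclic loess. Vegfa itself lay at -0.49, -0.17 and -1.07 in the same pairs. For 14 type 2 markers the median was -1.66 (-1.27, -1.04 and -2.39 in the pairs), or -0.98 after cyclic loess. Scd1, Hc, Sftpa1 and S100g, with the smallest p, lay between -5.17 and -1.97. Sftpc was at 14.4 in wild type and 13.4 in CKO lungs, with -0.50, -0.27 and -2.09 in the pairs and -0.22 after cyclic loess. General epithelial markers (16 genes) had medians of 0.03, 0.29 and -1.01 in the pairs, and 0.35 after cyclic loess. In all 3 pairs 4 of them were lower and 1 was higher. Of all genes 29.3% were lower in all 3 pairs, and of genes within the range of levels of the 10, 45.62%. Those with the smallest p were Ocln at -0.56, Krt19 at -1.01, Cldn4 at 0.50 and Krt8 at -0.93. Krt19 and Krt8 were lowest in pair 3, at -2.26 and -2.13. The defining markers Epcam and Cdh1 were chosen after their values were seen. Epcam gave 0.04, 0.69 and -1.08 in the pairs, and 0.43 after cyclic loess. Cdh1 gave -0.06, 0.22 and -1.44, and 0.20 after cyclic loess. The part of these shifts in the Vegfa value was not tested. Blood, macrophage and heart muscle markers were measured as well. The 5 erythroid genes matched of 9 listed had a median of 0.36, 10 macrophage genes -0.05 and 7 heart muscle genes -0.30. Of these lists, 2, 3 and 0 genes were lower in all 3 pairs. The erythroid median was the value of Epb42, which with Hba-a1 (0.49) was dimmer on average than the median probe set. The brighter Alas2 and Slc4a1 were lower in all 3 pairs, at -1.12 and -0.78, and Klf1 was at 0.43.

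**Figure D4:**
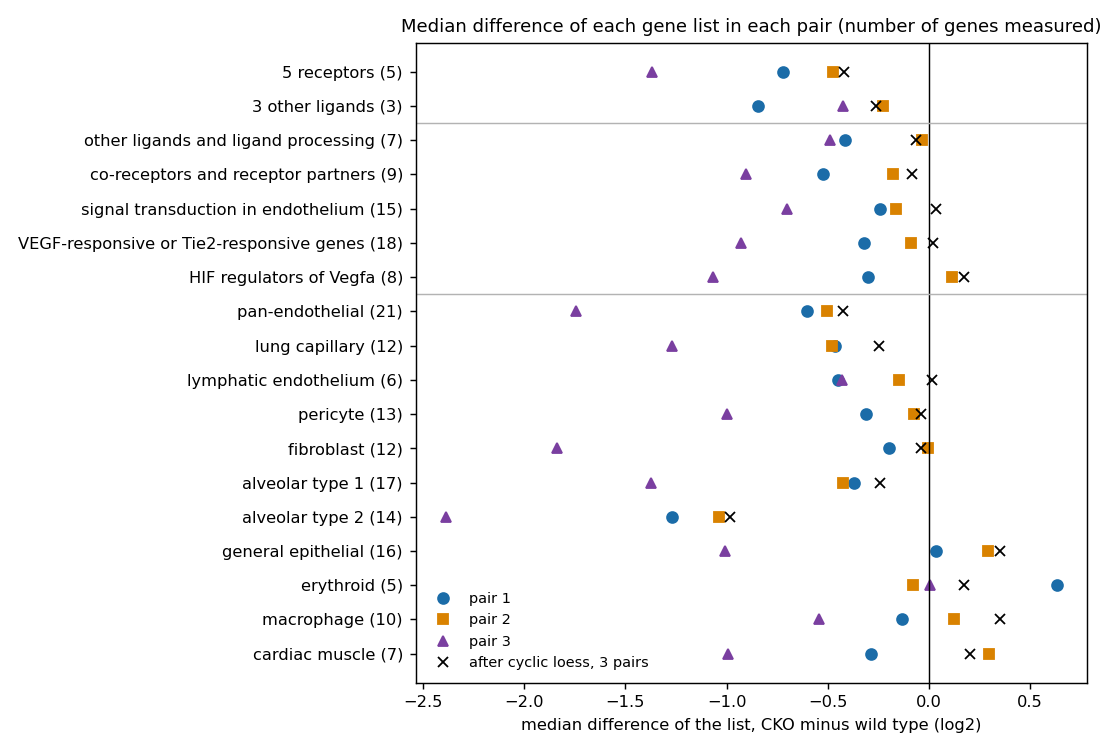
Median difference (CKO minus wild type, log2) of the receptors, the other ligands, 5 pathway lists and 11 marker lists in each pair, and over 3 pairs after cyclic loess. Pair 3 has the lowest median in most lists, and after cyclic loess alveolar type 2, pan-endothelial and receptor genes remain the lowest.

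None of the other genes of the pathway passed over all probe sets. Of 7 further ligands and ligand-processing genes, 5 were lower and 1 higher in all 3 pairs (median -0.26). Ccbe1, a secreted factor needed to activate VEGF-C, was at -1.002 ± 0.68 with no overlap between groups (8.79 on average in wild type and 7.79 in CKO lungs). Of all genes, 6.05% were lower in CKO lungs with no overlap. The VEGF-C-like ligand Vegfd was at -0.68 ± 0.32, Vegfb at -0.35 ± 0.26, and Angpt4 at 0.39 ± 0.21. Adamts3, the protease that acts with Ccbe1, was at -0.26 ± 0.21. Among 9 co-receptors and receptor partners 6 were lower in all pairs and 0 higher (median -0.44, or -0.08 after cyclic loess). Cdh5, the VE-cadherin of endothelial junctions, was at -1.12 ± 0.59, Robo4 at -0.74, the phosphatase gene Ptprb, which acts on Tie2, at -0.61 and Plxnd1 at -0.59, while Nrp2 was at -0.36.

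Of 15 genes of signal transduction in endothelium, 10 were lower and 2 higher in all pairs (median -0.37, or 0.03 after cyclic loess). Among genes within the range of levels of the 10, 45.62% were lower in all pairs. Bmx, a kinase of arterial endothelium, was at -0.71 ± 0.31, and the kinase Fyn was at -0.99, Sphk1 at -0.56 and the adaptor Nck1 at -0.83. The 18 genes known to respond to VEGF or Tie2 had 9 lower and 2 higher in all pairs (median -0.50, or 0.02 after cyclic loess), a share close to the 45.62% lower among all genes within the range of levels of the 10. Those with the smallest p were Notch4, a Notch receptor of endothelium, at -1.14 ± 0.48, the calcineurin regulator Rcan1 at -0.98 ± 0.45, the chemokine receptor Cxcr4 at -1.002 ± 0.52 and the apelin receptor Aplnr at -0.62 ± 0.09. Of 8 genes of the hypoxia-inducible factor system, which controls Vegfa transcription, 3 were lower in all pairs. That share lies between those of all genes (29.3%) and of genes within the range of levels of the 10 (45.62%). Their median was -0.42, with -0.30, 0.12 and -1.07 in the pairs, and 0.17 after cyclic loess. Epas1, an endothelial and alveolar hypoxia-inducible factor, was at -1.04 ± 0.88, Egln1 at -0.65, Hif3a at -0.41 and Egln3 at -0.63.

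**Figure D5:**
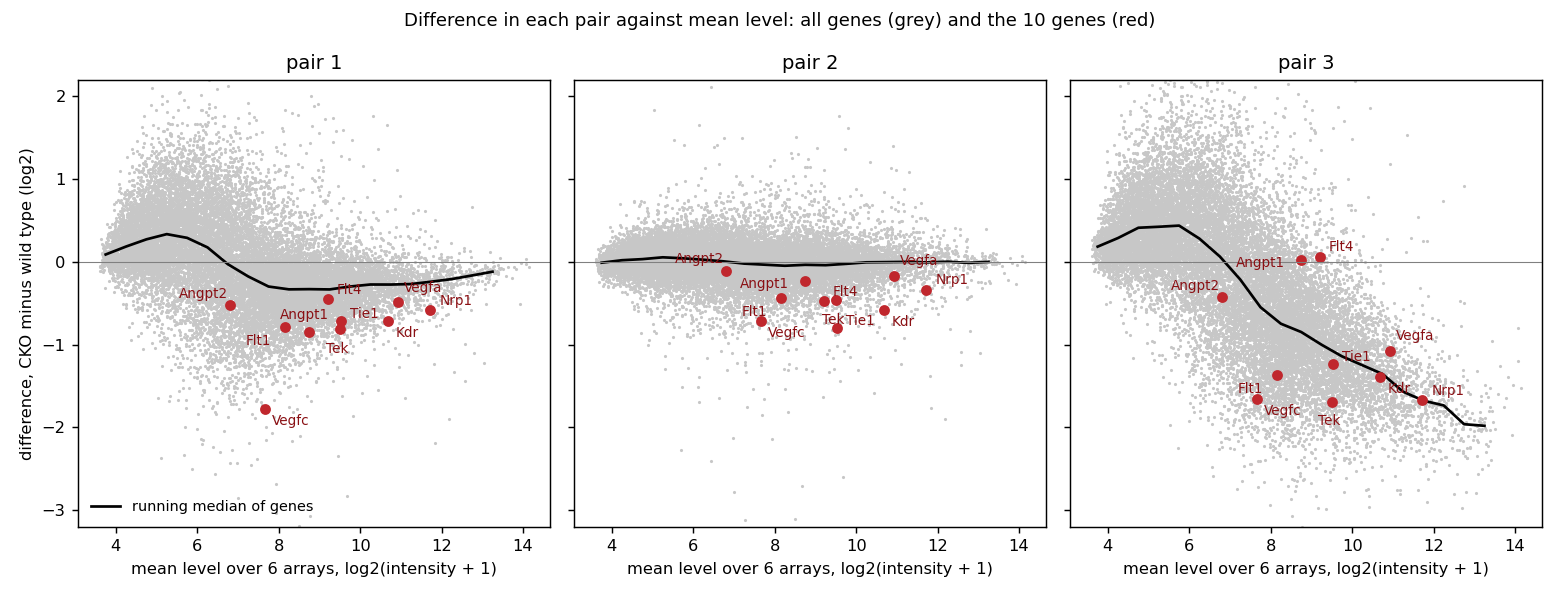
Difference in each pair (log2) against mean level over 6 arrays for all 18193 genes (grey; a few beyond the axis limits are not shown), the running median of genes (black) and the 10 genes (red). The running median is flat in pair 2 and slopes down steeply in pair 3, where Kdr and Nrp1 lie on it and Vegfc lies below it.

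The genes whose profiles over the 6 arrays were closest to those of Kdr and Vegfa were found among 8915 genes at or above the median level, by the root mean square distance between levels centred on each gene's mean. For Kdr these were Klhl5, Afap1l1, Rcsd1, the endothelial claudin gene Cldn5 and Meis1, at distances of 0.04 to 0.06 (log2), against a median of 0.33 over the candidates. For Vegfa they were Scaf8, Exoc5, Serpinb6a, Polr2i and Usp32, at 0.03 to 0.05 against a median of 0.29. Among the 10 genes, Kdr was nearest to Nrp1 (0.13) and Flt1 (0.17), Vegfa to Angpt2 (0.21) and Nrp1 (0.22), and Flt4 to Angpt1 (0.18). All these distances include Smad1 CKO 3, where bright genes as a whole lay lower. By their brightest probe sets, Flt4 and Angpt1 did not show that shift, at 0.06 and 0.03 in pair 3.

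The sequences before the gene starts are shown for a ligand and a pair of receptors that differed in their values: Vegfa, the epithelial ligand, Tie1, lower in every pair, and Flt4, which was not. They are the members with a start site in the promoter table (RefSeq, GRCm38.p6, 8 of 10 genes matched) whose 250 bases before it overlapped no annotated gene. Each is given 5′ to 3′ on the gene's strand, at chr17:46032378-46032627 (minus strand) for Vegfa, chr4:118489850-118490099 (minus) for Tie1 and chr11:49609429-49609678 (plus) for Flt4. Capitals mark GGAA on either strand (TTCC on the strand shown), the core that ETS factors, a family that includes endothelial regulators such as Erg, can bind.
Vegfa: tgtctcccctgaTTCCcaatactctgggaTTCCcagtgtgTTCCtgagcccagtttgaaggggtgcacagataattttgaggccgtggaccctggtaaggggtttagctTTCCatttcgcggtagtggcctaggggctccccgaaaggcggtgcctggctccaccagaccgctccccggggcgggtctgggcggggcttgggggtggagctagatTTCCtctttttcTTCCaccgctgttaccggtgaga
Tie1: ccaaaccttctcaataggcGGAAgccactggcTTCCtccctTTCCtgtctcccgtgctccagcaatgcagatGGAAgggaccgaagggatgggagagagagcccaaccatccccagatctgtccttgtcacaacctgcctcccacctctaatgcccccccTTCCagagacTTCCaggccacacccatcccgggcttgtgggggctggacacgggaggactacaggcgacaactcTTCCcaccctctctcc
Flt4: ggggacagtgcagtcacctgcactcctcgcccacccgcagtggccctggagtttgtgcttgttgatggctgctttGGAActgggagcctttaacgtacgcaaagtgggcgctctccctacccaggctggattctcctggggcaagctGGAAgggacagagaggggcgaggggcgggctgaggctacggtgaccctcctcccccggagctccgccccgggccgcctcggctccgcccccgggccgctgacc
GGAA or TTCC occurred 6 times before Vegfa, 7 times before Tie1 and 2 times before Flt4, with a median of 3 over all 32817 windows of this length, 93.4% of which held it. The GC box GGGCGG (or CCGCCC), bound by factors of the Sp family, occurred 2 times before Vegfa, 3 times before Flt4 and 0 times before Tie1, and 32.7% of all windows held it. No match of the first motif overlapped one of the second in these 3 windows. Matches in a window of this length describe its letters and are not evidence of binding.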

How the data were processed

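RNA of 6 left lung lobes (3 wild type, 3 Smad1 CKO) was read on Affymetrix Mouse430_2 arrays. Judged by their range, the deposited numbers are linear intensity values, 1 for each probe set. RMA is named in the submitters' processing notes, and its software and settings are not stated in what was used here. The 64 control probe sets were left out. The platform annotation named 1 gene for 34945 of the other 45037, several for 932 and none for 9160. The brightest probe set on average stood for a gene.

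Levels, log2(intensity + 1), were fitted with limma 3.58.1 in R 4.3.3 (lmFit, eBayes, two-sided) with the pair as a block. P-values were adjusted over all probe sets at 0.05. Pairing follows the design text and the letters in the array names. Deviations of paired arrays from their group means correlated at 0.258, 0.604 and 0.597 in pairs 1, 2 and 3. Wild type 1 correlated almost as highly with CKO 2 (0.215) as with its own partner. The other unpaired combinations lay between -0.62 and -0.004. The fit was tested on simulated data. No array was a copy of another (smallest root mean square distance 0.2266). The labels do not say whether pairs are littermates.

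The 10 genes, the 5 pathway lists, the 11 marker lists (200 of 209 genes matched) and the alternatives were chosen with earlier results of these data known. From each list up to 4 genes with the smallest unadjusted p are named, plus defining markers. Emp2 is in 2 lists. The 12 alternatives cover the pseudocount (16), dim probe sets, 2 normalizations, pairing, an intensity trend, the probe set rule and arrays left out.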

Additional observations from a re-analysis of the deposited data

How the results depend on the processing

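None of the 10 genes passed adjustment over all probe sets in limma under any of the 12 alternatives, as in the fit with all pairs, where 6 had an unadjusted p under 0.05. The pairs are blocked throughout: with no replicate block that count was 2, and after cyclic loess it was 3. It was 4 to 7 when a pair was left out, and 3 without Smad1 CKO 3 or 0 without Smad1 CKO 1, both unpaired with 3 arrays against 2. The median difference of the 5 receptors (-0.90) was negative under all 12 alternatives. It was -0.42 after cyclic loess, -0.36 without Smad1 CKO 3 and -1.05 without Smad1 CKO 1, and -1.05 to -0.64 when a pair was left out. The other ligands' median ran from -0.54 to -0.26. Vegfa was at 0.0089 after cyclic loess, the opposite sign, at -0.01 after quantile normalization, and at -0.78 to -0.32 with arrays left out. After cyclic loess and quantile normalization Angpt1 was at 0.084 and 0.054 and Flt4 at 0.19 and 0.17, also reversed, and the cause was not tested. Of 120 values of single genes under alternatives, 115 kept their direction. Vegfc ran from -1.71 to -1.03, with adjusted p from 0.169 to 0.917. The signal of dim probe sets, such as the second of Angpt2, limits what they can show.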
